A study of Mus musculus with 6 samples.

Results

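The PGC-1 coactivator family consists of 3 genes, Ppargc1a, Ppargc1b and Pprc1, which encode PGC-1α, PGC-1β and the PGC-1-related coactivator PRC. Probes were chosen by matching the transcript accession of each non-control probe to these symbols, and 6 probes, 2 for each gene, were found among 56605 non-control probes, of which 33767 matched a single symbol and covered 23462 genes. PGC-1 proteins do not bind DNA by themselves. They dock on nuclear receptors and other transcription factors, such as the oestrogen-related receptors and NRF-1, recruit histone acetyltransferases and the Mediator complex, and so raise transcription of genes for mitochondrial biogenesis and oxidative metabolism. Ppargc1a is the inducible member, switched on in many tissues by cold, fasting or exercise, whereas Ppargc1b shares many of its partners and Pprc1 is known as an early serum-responsive gene.

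To determine how forced PGC-1α expression alters resting microglia, microglia of PGC-1αf/f and mPGC-1α mice were profiled on 1-colour Agilent arrays (n = 3 arrays each). According to the labels and the study's methods, all mice were male, 10 weeks old and of C57BL/6 background. All carried a PGC-1α transgene with an IRES-eGFP reporter, which the study's drawing of the construct places under the Rosa26 promoter and behind a loxP-flanked stop cassette. The mPGC-1α mice additionally carried a tamoxifen-inducible Cre recombinase inserted in Cx3cr1, a gene that is active in microglia and in other myeloid cells, so that Cre removes the stop cassette. The PGC-1αf/f controls were littermates without Cre. Tamoxifen was given on consecutive days and followed by a rest interval before the experiments. Cells were captured with magnetic beads through the microglial receptor P2RY12. How many mice contributed to an array is not given in the sources used here, and the p-values therefore measure only the spread between these samples.

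Some arrays stood apart. The 75th percentile of intensity ranged from 1012 to 2138 units, and PGC-1αf/f replicate 3 had the highest value. That array had a mean correlation with the other arrays of 0.928 across 22997 probes, where the other arrays had 0.962 to 0.972. On mPGC-1α replicate 3, 0 of 4 Y-linked genes were well above background, where all 4 were on each of the other 5 arrays, although every sample is labelled male. Xist was well above background on mPGC-1α replicate 3 and on replicate 2 of both groups. All 12 microglial markers were well above background on all 6 arrays, and their summed level was 198 to 235 times the 75th percentile in PGC-1αf/f and 177 to 205 times in mPGC-1α samples. Each genotype occupied its own row of the slide (PGC-1αf/f row 1, mPGC-1α row 2), so the row and the genotype cannot be told apart. The differences given here hold for these 6 arrays, and values without replicate 3 of either group are given for the family probes and for the pathway genes that they moved most.

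The upstream sequences of the endogenous Ppargc1a and Pprc1 genes are shown because the transgene is drawn under the Rosa26 promoter and not under that of Ppargc1a itself. The sequence of Ppargc1b was not available here and was not searched. The sequences are the 250 bases before the annotated start in the RefSeq assembly GRCm38.p6, 5′ to 3′ on the strand of the gene, at chr5:51567726-51567975 (minus strand) for Ppargc1a and chr19:46056289-46056538 (plus strand) for Pprc1. Capitals mark a match to any of the motifs searched.
Ppargc1a: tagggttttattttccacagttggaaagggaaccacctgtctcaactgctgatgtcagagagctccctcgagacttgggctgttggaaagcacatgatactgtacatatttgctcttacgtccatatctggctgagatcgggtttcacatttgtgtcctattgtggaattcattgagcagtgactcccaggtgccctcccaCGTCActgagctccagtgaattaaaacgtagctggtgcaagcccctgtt
Pprc1: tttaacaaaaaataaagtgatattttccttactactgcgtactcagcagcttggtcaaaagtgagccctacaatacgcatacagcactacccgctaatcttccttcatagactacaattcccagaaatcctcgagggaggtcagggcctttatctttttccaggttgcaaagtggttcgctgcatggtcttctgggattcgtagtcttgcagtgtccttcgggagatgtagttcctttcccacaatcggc
The motifs were searched on both strands. A cAMP response element half-site (TGACG), the core of the site through which CREB can act, was found 1 time in the Ppargc1a sequence, on the reverse strand with its first printed base at position -49 from the start. It was found 0 times in the Pprc1 sequence, and 17.8% of the 32851 promoter windows of the same length held it. Neither sequence held the full cAMP response element (TGACGTCA), found in 1.55% of windows and itself containing the half-site, nor the half-site of oestrogen-related receptors (AAGGTCA), found in 4.08%. The NRF-1 motif (GCGCANGCG) was in 5.16% of windows, the GABP motif (CCGGAAG) in 6.91%, the Sp1 GC box (GGGCGG) in 32.7%, the TATA box (TATAAA) in 12.4% and the E-box (CACGTG) in 6.02%, and none of these letters occurred in either sequence. A match is a description of letters and not a site of binding.

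Ppargc1a, the gene whose product the transgene encodes, had a higher mean in mPGC-1α microglia on both of its probes, but neither probe passed the test. The brighter probe (A_51_P279038, transcript NM_008904) gave an intensity of 1153, 1143 and 922 units in PGC-1αf/f replicates 1, 2 and 3. In mPGC-1α replicates 1, 2 and 3 it gave 1897, 2026 and 1547 units. The software's own error was 8.09% to 8.47% of each value. Every mPGC-1α array was brighter than every PGC-1αf/f array before scaling, and this was so for 1 of the 5 tested family probes. Of the 22997 tested probes with values on 6 arrays, 7.54% had unscaled groups that did not overlap with mPGC-1α higher.

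**Figure D1:**
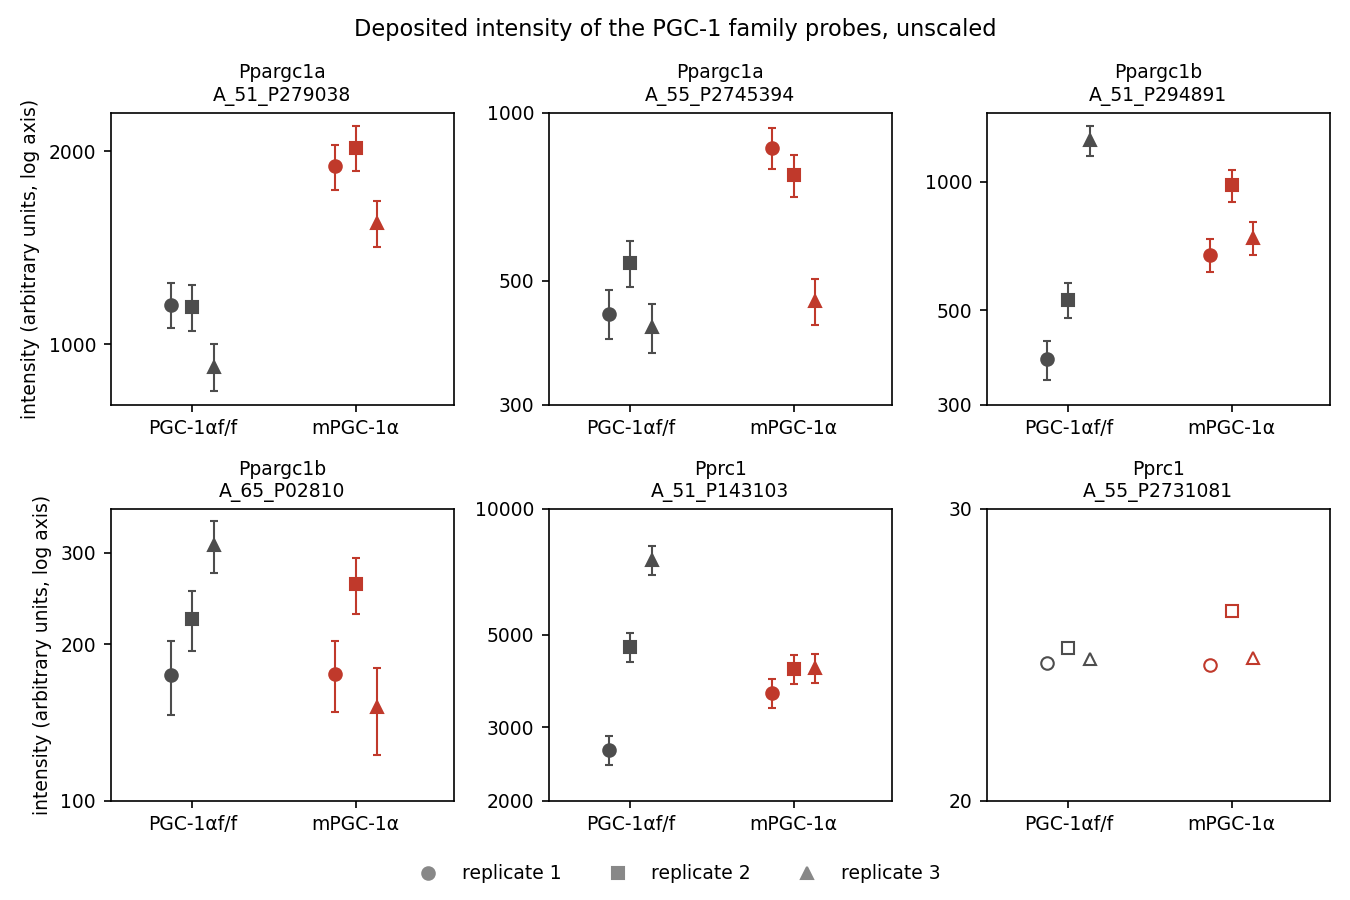
Intensity of the 6 PGC-1 family probes on each array before scaling, on a log axis in arbitrary fluorescence units, with grey for PGC-1αf/f and red for mPGC-1α, symbols for replicates and bars for the error that the scanner software assigns to a spot; open symbols, drawn without bars, are not well above background. The 3 mPGC-1α arrays lie above the 3 PGC-1αf/f arrays for the Ppargc1a probe A_51_P279038, at 1547 units or more against 1153 or less, whereas the groups overlap for the other 5 probes.

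To compare arrays of different brightness, the log2 of the 75th percentile of intensity on an array was subtracted from its log2 values. On this scale the brighter Ppargc1a probe gave 0.19, -0.44 and -1.21 in PGC-1αf/f and 0.57, 0.28 and 0.08 in mPGC-1α microglia. The groups now overlapped, because PGC-1αf/f replicate 1, at 0.19, was above mPGC-1α replicate 3, at 0.08. The PGC-1αf/f values spanned a wider range, with replicate 3 the lowest. The means were -0.49 ± 0.70 and 0.31 ± 0.25 (SD, n = 3 each), a difference of 0.80 on the log2 scale (SE 0.35, 95% interval -0.02 to 1.62) or 1.74-fold (0.986 to 3.07). The limma adjusted p was 0.306, and the exact two-sided permutation p was 0.2, where 0.1 is the smallest p that 3 arrays against 3 allow. The interval therefore held both no change and a 3.07-fold change. It lay wholly above 0 under 7 of 19 alternative fits, although the adjusted p stayed above 0.05 in all 19.

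The second Ppargc1a probe (A_55_P2745394, assigned to the same transcript) was dimmer, with 437, 538 and 413 units in PGC-1αf/f and 867, 773 and 460 units in mPGC-1α replicates 1, 2 and 3. After scaling it gave -1.21, -1.53 and -2.37 in PGC-1αf/f and -0.56, -1.11 and -1.67 in mPGC-1α microglia. The groups overlapped, since mPGC-1α replicate 3 was below PGC-1αf/f replicates 1 and 2. The difference was 0.59 (SE 0.38, 95% interval -0.30 to 1.48, limma adjusted p 0.445). The brighter minus the dimmer probe was 1.40, 1.09 and 1.16 in PGC-1αf/f and 1.13, 1.39 and 1.75 in mPGC-1α microglia, which differed by 0.21 (exact permutation p = 0.5). The Ppargc1a probes therefore had the same sign, and their disagreement between groups was within the spread between arrays. A match of either probe to transgene-derived RNA was not analysed here.

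The Ppargc1a difference was smaller without PGC-1αf/f replicate 3, at 0.44 for the brighter probe and 0.26 for the other (limma adjusted p 0.509 and 0.801). Without mPGC-1α replicate 3 the differences were 0.92 and 0.87 (limma adjusted p 0.411 and 0.406). Between the arrays that shared a slide column, the brighter probe was higher in mPGC-1α by 0.38 in column 1 and by 0.72 in column 2, and the dimmer probe by 0.65 and 0.42. PGC-1αf/f replicate 3 also had the lowest summed level of 12 blood leukocyte markers, 17.1 times the 75th percentile, where the other PGC-1αf/f arrays had 91.7 and 103 and the mPGC-1α arrays 106 to 126. It was the lowest array also for summed erythroid markers, with 4.92 against 11.6 to 20.9 elsewhere (2 of 5 markers well above background on all arrays), and for astrocyte markers, with 14.4 against 18.9 to 28.1 (7 of 8 well above background on all arrays), although only 4 of the 8 astrocyte markers had their lowest value there. Its sums were the lowest as well for endothelial and mural markers, at 8.02 against 10.1 to 11.3. The same held for border macrophage markers, at 8.40 against 9.57 to 14.5, with 2 of 6 markers lowest there. Its sum of oligodendrocyte markers, 19.6, was instead the highest of all arrays. Most of the endothelial and mural sum came from Acta2, at 2.84 on the log2 scale there, where the other markers of that list were below 0. In that list 7 of 9 markers were lowest there, but only 5 were well above background on all arrays, and Rgs5 and Tek on 0 arrays. All 12 leukocyte markers had their lowest value on that array. In the leukocyte list, 9 markers passed the background flag on every array. The part of any of these cells in the Ppargc1a difference was not tested. In RNA of a sorted population, fewer cells of a type and less RNA per cell cannot be told apart.

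**Figure D2:**
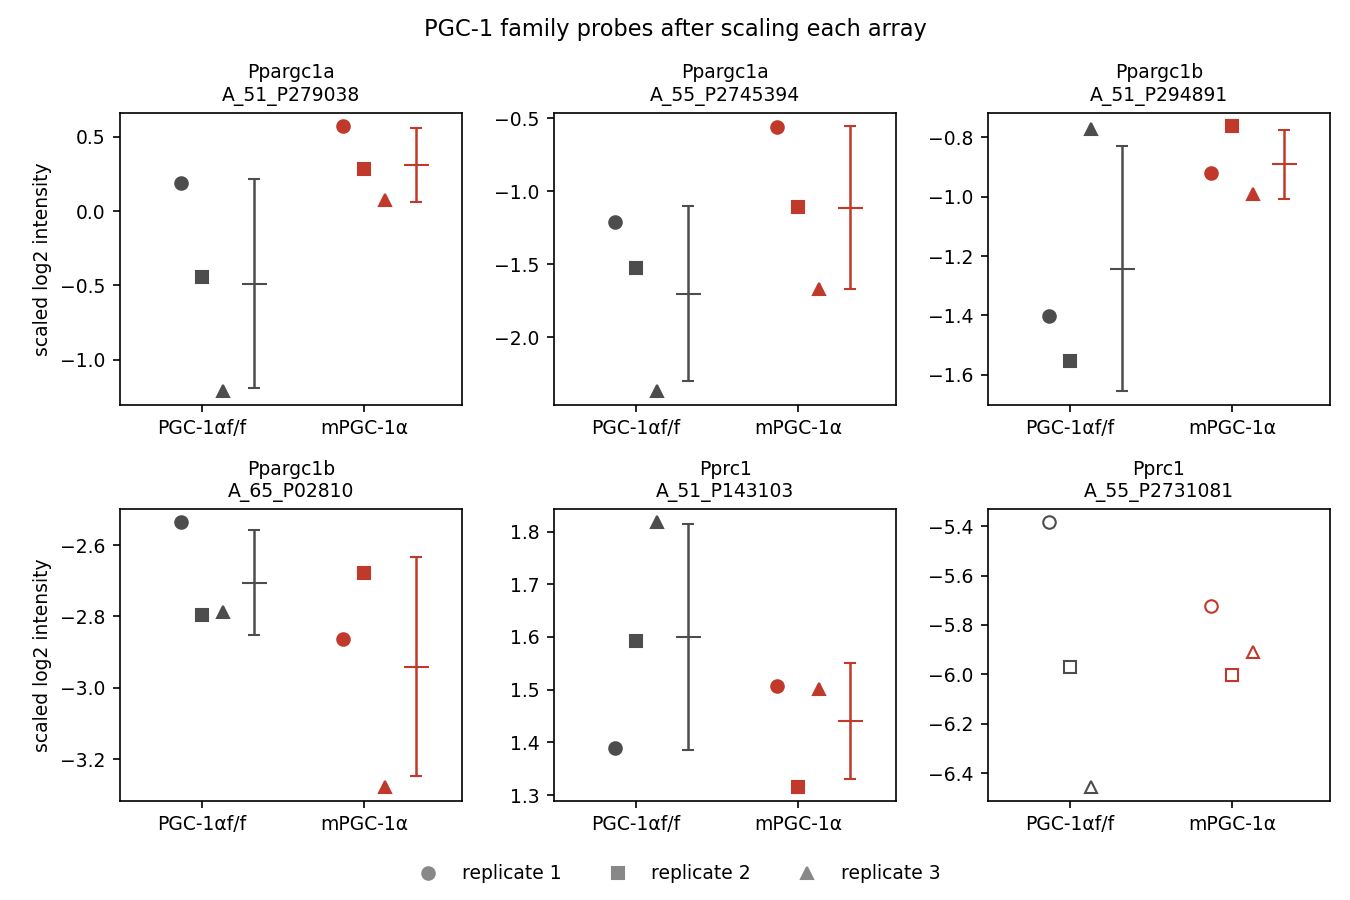
Log2 intensity minus the 75th percentile of the array for the 6 PGC-1 family probes, in grey for PGC-1αf/f and red for mPGC-1α, with the mean ± SD of 3 arrays beside the points and open symbols, without a mean, for values not well above background. PGC-1αf/f replicate 3 is the lowest array for both Ppargc1a probes, at -1.21 and -2.37, and is the highest array for the Pprc1 probe A_51_P143103, at 1.82.

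Ppargc1b, whose product PGC-1β shares many partners with PGC-1α, gave differences of opposite sign on its probes. The brighter probe (A_51_P294891, transcript NM_133249) gave 383, 529 and 1251 units in PGC-1αf/f and 674, 982 and 739 units in mPGC-1α replicates 1, 2 and 3. After scaling these were -1.40, -1.55 and -0.77 in PGC-1αf/f and -0.92, -0.76 and -0.99 in mPGC-1α microglia. PGC-1αf/f replicates 1 and 2 were the lowest, and replicate 3 lay among the mPGC-1α values. The means were -1.24 ± 0.41 and -0.89 ± 0.12 (SD, n = 3 each), a difference of 0.35 (SE 0.22, 95% interval -0.17 to 0.87) or 1.28-fold (limma adjusted p 0.440, exact permutation p = 0.3). Without PGC-1αf/f replicate 3 it was 0.59 (limma adjusted p 0.205), and without mPGC-1α replicate 3 it was 0.40 (limma adjusted p 0.516). Leaving out PGC-1αf/f replicate 3 thus raised the difference of this probe, where it lowered that of both Ppargc1a probes. Within slide columns 1 and 2 the probe was higher in mPGC-1α by 0.48 and 0.79.

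The second Ppargc1b probe (A_65_P02810) is assigned to a predicted transcript model, XM_006525698. It gave 174, 224 and 310 units in PGC-1αf/f and 175, 261 and 151 units in mPGC-1α replicates 1, 2 and 3, and was well above background on all 6 arrays. After scaling it gave -2.54, -2.80 and -2.79 in PGC-1αf/f and -2.86, -2.68 and -3.28 in mPGC-1α microglia. The groups overlapped, and mPGC-1α replicate 3 was the lowest. The difference was -0.23 (SE 0.19, 95% interval -0.68 to 0.21, limma adjusted p 0.543), and it was -0.27 without PGC-1αf/f replicate 3 and -0.065 without mPGC-1α replicate 3. It changed sign between slide columns, with -0.33 in column 1 and 0.12 in column 2. The brighter minus the dimmer probe was 1.14, 1.24 and 2.01 in PGC-1αf/f and 1.94, 1.91 and 2.29 in mPGC-1α microglia. These within-gene values differed by 0.59 between groups (exact permutation p = 0.3), with PGC-1αf/f replicate 3 among the mPGC-1α values. The mean over both probes gave 0.059 for the gene, so a direction for Ppargc1b depended on the probe.

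Pprc1 had a lower mean in mPGC-1α microglia, within the spread between arrays. Its measurable probe (A_51_P143103, transcript NM_001346801) gave 2651, 4679 and 7536 units in PGC-1αf/f and 3627, 4147 and 4152 units in mPGC-1α replicates 1, 2 and 3. After scaling these were 1.39, 1.59 and 1.82 in PGC-1αf/f and 1.51, 1.31 and 1.50 in mPGC-1α microglia. The mPGC-1α values lay close together, and PGC-1αf/f replicate 1 fell between them. The means were 1.60 ± 0.21 and 1.44 ± 0.11 (SD, n = 3 each), a difference of -0.16 (SE 0.16, 95% interval -0.53 to 0.21) or 0.896-fold (0.693 to 1.16), at a limma adjusted p of 0.620 and an exact permutation p of 0.4. The difference was -0.05 without PGC-1αf/f replicate 3 and -0.19 without mPGC-1α replicate 3. It changed sign between slide columns, with 0.12 in column 1 and -0.28 in column 2. The interval was the narrowest of the tested family probes. The other Pprc1 probe (A_55_P2731081, transcript NM_001081214) gave 24.1 to 26.0 units, was well above background on 0 arrays and was not tested.

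**Figure D3:**
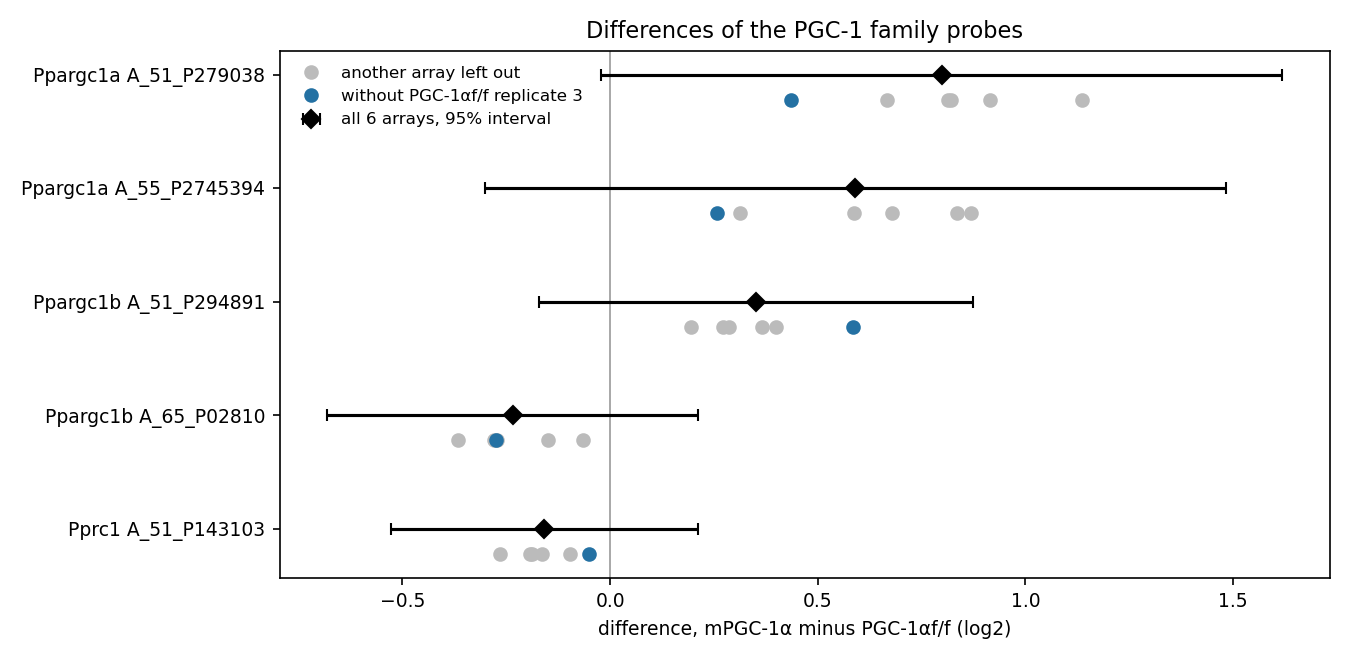
Difference of each tested PGC-1 family probe, mPGC-1α minus PGC-1αf/f on the log2 scale, with its 95% interval from limma (diamonds and bars) and the 6 values obtained when each array is left out (circles, with the value without PGC-1αf/f replicate 3 in blue). All 5 intervals include 0, and leaving out PGC-1αf/f replicate 3 gives the lowest value for both Ppargc1a probes and the highest for the Ppargc1b probe A_51_P294891.

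Among the 5 tested family probes, 0 passed a limma adjusted p of 0.05, where 0.0792% of the 25257 tested probes did. At an unadjusted p under 0.05 the count was again 0 of 5, where 7.53% of all tested probes were higher and 9.21% lower in mPGC-1α microglia. The brighter Ppargc1a probe came nearest, with an unadjusted limma p of 0.0546. The unadjusted count was 0 under 9 of 18 alternative fits, 1 under 7 and 2 under 2, which were the replicate block and array weights. Scaled groups were free of overlap for 0 of the 5 probes. Among tested probes with values on 6 arrays, 11.4% did not overlap with mPGC-1α higher and 13.7% with mPGC-1α lower. In exact permutation and exact Mann-Whitney tests of the brightest probe of each gene, 0 of 3 reached the smallest possible p of 0.1.

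Next, members were compared with each other on the same array, which cancels the scaling. Only the change of such a difference between groups has a meaning, because probes differ in brightness for the same amount of RNA. Ppargc1a minus Ppargc1b was 1.59, 1.11 and -0.44 in PGC-1αf/f and 1.49, 1.04 and 1.07 in mPGC-1α microglia. The groups overlapped, and PGC-1αf/f replicate 3 was far below the other 5 arrays. The change was 0.45 (exact permutation p = 0.9), and -0.15 without that array. Ppargc1a minus Pprc1 was -1.20, -2.03 and -3.03 in PGC-1αf/f and -0.94, -1.03 and -1.42 in mPGC-1α microglia. The change of 0.96 had an exact permutation p of 0.2 (0.3 after Benjamini-Hochberg adjustment over the 3 pairs), and it was 0.49 without PGC-1αf/f replicate 3.

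Ppargc1b minus Pprc1 was -2.79, -3.14 and -2.59 in PGC-1αf/f and -2.43, -2.08 and -2.49 in mPGC-1α microglia. The groups did not overlap, and every mPGC-1α value was the higher. The change of 0.51 had an exact permutation p of 0.1, the smallest this design allows, and 0.3 after adjustment over the 3 pairs. With the mean over both Ppargc1b probes the change was 0.22 (exact permutation p = 0.5). Therefore, no pair of members was shown to differ in its response.

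**Figure D4:**
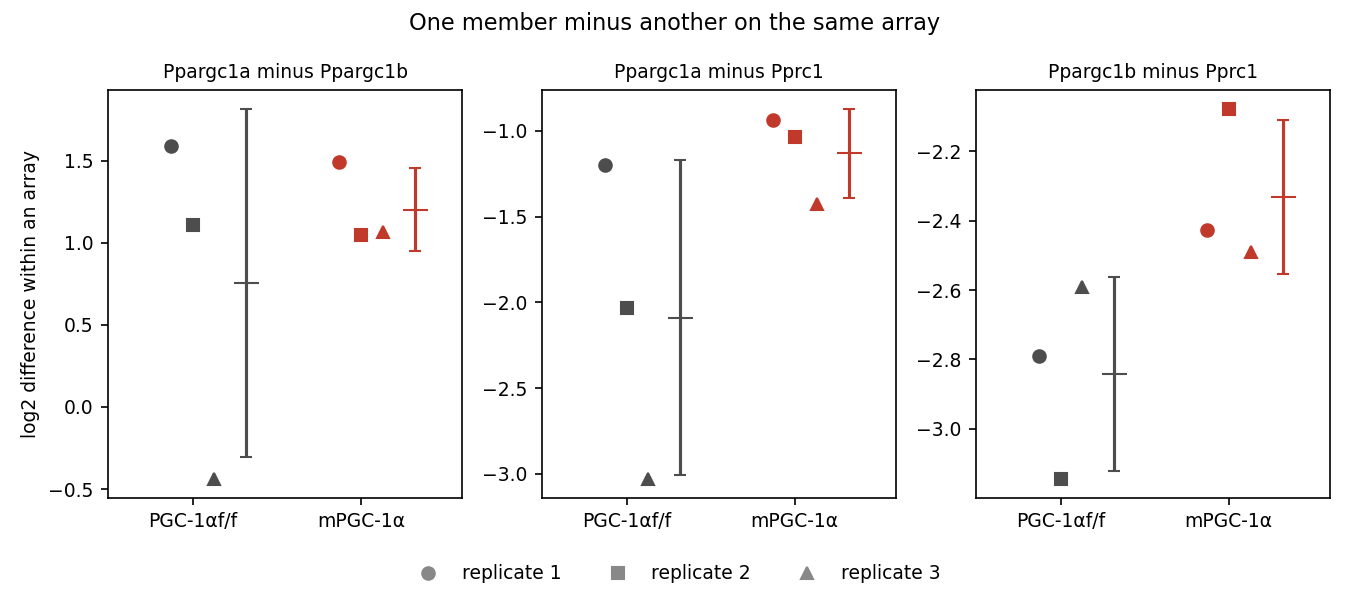
Log2 value of one PGC-1 member minus that of another on the same array, from the brightest probe of each gene, in grey for PGC-1αf/f and red for mPGC-1α, with the mean ± SD of 3 arrays beside the points. The groups separate for Ppargc1b minus Pprc1, at -2.59 or less against -2.49 or more, and PGC-1αf/f replicate 3 is the lowest array in the 2 panels with Ppargc1a.

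Genes whose pattern over the 6 arrays was most like that of each member were then identified by the root-mean-square distance between values centred on the mean of each gene, among 12301 other genes. For Ppargc1a the nearest were Fhad1 (0.032), Palmd (0.041), Plagl1 (0.052), Efcab10 (0.052) and Fap (0.065), where the median distance over all genes was 0.609. Fhad1 gave 0.35, -0.26 and -1.10 in PGC-1αf/f and 0.70, 0.49 and 0.26 in mPGC-1α microglia, with the same array lowest as for Ppargc1a. The second Ppargc1a probe was at a distance of 0.228, and 496 genes were nearer than it. For Ppargc1b the nearest were Bhlhe41, which encodes a circadian repressor (0.063), Gm11564 (0.089), Arfgef1 (0.094), Prdm2 (0.105) and Ddx60 (0.107). Its second probe was at 0.420, and 7916 genes were nearer. For Pprc1 the nearest were Rgl2 (0.034), Asb1 (0.043), Glrp1 (0.043), Avl9 (0.043) and Maml3, a coactivator of Notch signalling (0.048), where the median distance was 0.254. Likeness over 6 arrays is a description, since all genes share these arrays.

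Genes that work with the PGC-1 family were listed by role, 111 in all, of which 110 had a probe and 93 were tested with values on 6 arrays. By limma, 0 of 93 passed an adjusted p of 0.05, and unadjusted p-values under 0.05 were found for 6 genes that were higher and 4 that were lower, beside 7.53% and 9.21% of all tested probes. Groups did not overlap for 9 genes that were higher and 9 that were lower, or 19.4% of the 93. Among tested probes with values on 6 arrays, 11.4% were higher and 13.7% lower without overlap. The median difference was 0.01 over the 93 genes and 0.03 over all 12302 tested genes. The lists were drawn up with results of these arrays known.

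Transcription factor partners, which bring PGC-1 proteins to DNA, spread in both directions. Of 23 tested, 10 had a difference above 0, the median was -0.02, and 5 were higher and 5 lower without overlap, or 43.5% in both directions, where 11.4% and 13.7% of all probes were. Foxo3, Ppara and Thrb, which all had a difference above 0, were not well above background on every array. Among the other 20 partners 7 had a difference above 0, the median was -0.06, and 4 were higher and 5 lower without overlap. With arrays aligned on their medians 7 of 23 were above 0, where 35.7% of all tested genes were. Without PGC-1αf/f replicate 3 the count was 14 of 23, where 53.9% of all tested genes were above 0, so no direction holds for the list. Esrrg, which encodes the oestrogen-related receptor γ, gave -0.80, -1.39 and -1.96 in PGC-1αf/f and 0.03, -0.41 and -0.59 in mPGC-1α microglia. All mPGC-1α values were the higher, with a difference of 1.05 (SE 0.31, limma adjusted p 0.208). Esrrb, encoding the oestrogen-related receptor β, gave -1.49, -1.98 and -2.95 against -1.02, -1.05 and -1.18, a difference of 1.05 (SE 0.35, limma adjusted p 0.234). In both genes PGC-1αf/f replicate 3 was the lowest array, as for Ppargc1a, and without it the differences were 0.76 for Esrrg and 0.65 for Esrrb. Gabpb1, a subunit of the GABP factor of respiratory genes, gave 0.40, 0.56 and 0.56 against 0.12, 0.15 and 0.10, a difference of -0.38 (SE 0.12, limma adjusted p 0.229). Foxo1, a forkhead factor restrained by insulin signalling, had a difference of -0.37 (SE 0.14, limma adjusted p 0.263), again without overlap.

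Coactivator complexes bind PGC-1 proteins and act on chromatin or RNA polymerase. Of 12 tested genes, 4 had a difference above 0, or 33.3% beside 54.1% of all tested genes, and the median was -0.07. The count was 0 of 12 with arrays aligned on their medians, where 35.7% of all tested genes were above 0, and 1 of 12 with quantile normalization, where 48.4% were. Med14, the backbone subunit of Mediator, gave 0.15, 0.04 and 0.28 in PGC-1αf/f and -0.40, -0.08 and -0.25 in mPGC-1α microglia. The groups did not overlap, with a difference of -0.40 (SE 0.15, limma adjusted p 0.259). Nrip1, which encodes the corepressor RIP140 that opposes PGC-1α on metabolic genes, had a difference of -0.26 without overlap (limma adjusted p 0.384). Kat2b, an acetyltransferase, and Ash2l, a histone methyltransferase subunit, had differences of -0.26 and -0.15 with overlap (limma adjusted p 0.575 and 0.555). The Kat2b difference was -0.037 without PGC-1αf/f replicate 3.

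Of the 13 tested inducers and repressors of Ppargc1a, 6 had a difference above 0, or 46.2%, and the median was -0.02. The count was 2 of 13 with a median of -0.15 when arrays were aligned on their medians. With that alignment 35.7% of all tested genes were above 0, with a median of -0.10. Without PGC-1αf/f replicate 3 the count was 9 of 13 with a median of 0.07, where 53.9% of all tested genes were above 0. No direction therefore holds for this list either, which also mixes inducers with repressors. Camk4, a calcium-dependent kinase upstream of CREB, gave -1.15, -1.44 and -2.23 in PGC-1αf/f and -0.50, -0.91 and -0.66 in mPGC-1α microglia. The groups did not overlap, and the difference was 0.92 (SE 0.29, limma adjusted p 0.221), or 0.60 without PGC-1αf/f replicate 3. Crtc2, a CREB coactivator, gave 2.15, 2.29 and 2.27 against 1.98, 1.97 and 1.97, a difference of -0.26 (SE 0.12, limma adjusted p 0.325). Sik1, a kinase that keeps CRTC proteins out of the nucleus, had a difference of 1.07 (SE 0.60, limma adjusted p 0.393) with groups that overlapped, and Nfatc1, a calcineurin-dependent factor, one of -0.24 (limma adjusted p 0.451). Without PGC-1αf/f replicate 3 these were 0.35 for Sik1 and -0.12 for Nfatc1.

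Of the 18 tested enzymes that modify PGC-1 proteins, 5 had a difference above 0, or 27.8%, and the median was -0.10. The count was 2 of 18 with arrays aligned on their medians, where 35.7% of all tested genes were above 0. It was 7 of 18 without mPGC-1α replicate 3, where 53% of all tested genes were. Prkaa2, a catalytic subunit of the energy sensor AMPK, gave -1.50, -2.81 and -3.03 in PGC-1αf/f and -1.17, -1.45 and -1.82 in mPGC-1α microglia. The groups overlapped at PGC-1αf/f replicate 1, and the difference was 0.96 (SE 0.40, limma adjusted p 0.298). It was 0.67 without PGC-1αf/f replicate 3 and 1.43 without PGC-1αf/f replicate 1. Kat2a, which encodes the acetyltransferase GCN5 that restrains PGC-1α, had a difference of -0.29, the kinase gene Akt1 one of -0.18 and the kinase gene Gsk3b one of -0.16 (limma adjusted p 0.414, 0.512 and 0.515), and only Gsk3b among these 3 was free of overlap. The Kat2a difference was -0.17 without mPGC-1α replicate 3 and -0.44 without mPGC-1α replicate 2.

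Known target genes of PGC-1α had mostly higher means in mPGC-1α microglia. Of 30 tested, 25 had a difference above 0, or 83.3%, beside 54.1% of all tested genes, and the median was 0.18. The other 5 were Ulk1 (-0.27), Mfn1 (-0.21), Tfam (-0.21), Tfb2m (-0.14) and Polrmt (-0.12). Groups overlapped for each of them (limma adjusted p 0.480 to 0.695). The study reports Ulk1 as a direct target of PGC-1α. Cpt1b, which admits fatty acids to mitochondria, gave -2.68, -2.44 and -2.52 in PGC-1αf/f and -2.26, -2.21 and -2.26 in mPGC-1α microglia. The groups did not overlap, with a difference of 0.31 (SE 0.13, limma adjusted p 0.297). The Cpt1b difference was 0.17 with arrays aligned on their medians, 0.25 with quantile normalization and 0.16 with normexp and quantile normalization. Alas1, the first enzyme of haem synthesis, gave 1.84, 1.70 and 1.45 against 2.03, 1.97 and 1.88, a difference of 0.29 (SE 0.15, limma adjusted p 0.355), also without overlap. The Alas1 difference was 0.16 with arrays aligned on their medians and 0.27 with quantile normalization. The antioxidant gene Prdx5 (0.37) and the adenine nucleotide carrier gene Slc25a4 (0.44) overlapped between groups (limma adjusted p 0.391 and 0.437). Only 2 of the 30 genes, or 6.67%, were free of overlap, both higher, where 11.4% of all probes were free of overlap and higher. Without PGC-1αf/f replicate 1 the differences of Alas1, Prdx5 and Slc25a4 were 0.38, 0.51 and 0.72. PGC-1αf/f replicate 3 was the lowest array for Alas1, Prdx5 and Slc25a4, whose differences without it were 0.19, 0.16 and 0.23. Without that array 21 of 30 target genes had a difference above 0 with a median of 0.12, and without mPGC-1α replicate 3, 24 of 31 with a median of 0.17. When arrays were aligned on their medians, 19 of 30 were above 0 with a median of 0.05, while the median of all tested genes moved to -0.10.

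**Figure D5:**
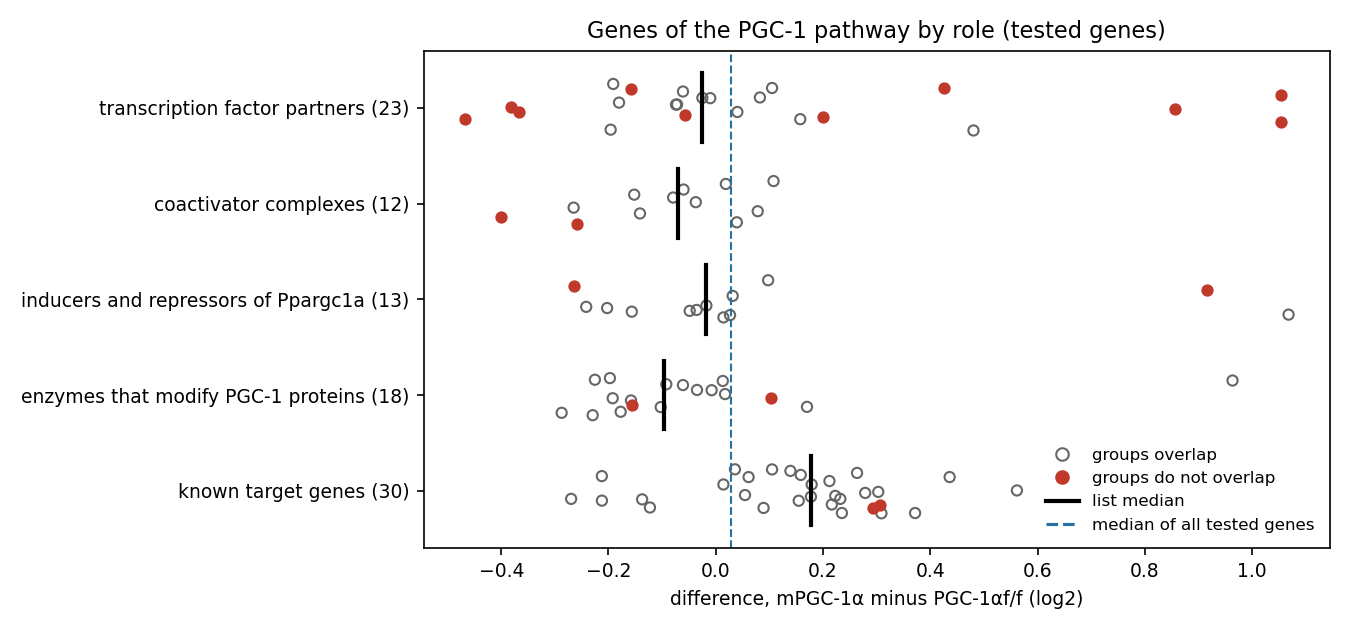
Difference of each tested gene of the PGC-1 pathway, mPGC-1α minus PGC-1αf/f on the log2 scale, by role with the number of tested genes in brackets; red points are genes whose groups do not overlap, black bars the list medians and the dashed line the median of all tested genes. The list median is 0.18 for known target genes and -0.02 for transcription factor partners, where 10 of 23 points are red.

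Cx3cr1, the gene that holds the Cre insertion, gave -0.51 on the probe with values on 6 arrays (SE 0.14, limma adjusted p 0.194), and its groups did not overlap, with mPGC-1α lower. P2ry12, the gene of the receptor used for capture, gave -0.31 with values on 5 arrays (limma adjusted p 0.478). Summed markers of oligodendrocytes were 16.1 to 19.6 times the 75th percentile in PGC-1αf/f and 10.1 to 13.3 times in mPGC-1α samples, with 7 of 10 markers well above background on all arrays. Those of neurons, cells in which Ppargc1a is known to be active, were 14.6 to 18.9 and 16.8 to 19.3 times, with 8 of 11 markers well above background on all arrays and Nefm and Slc17a7 on 0 arrays. Although the sums overlapped, 7 of the 11 neuronal markers had their lowest value on PGC-1αf/f replicate 3. The part of these cells in the family's values was not tested.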

How the data were processed

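Total RNA of sorted microglia was amplified, labelled with Cy5 and hybridized to Agilent Mouse Gene Expression arrays by the authors. The deposited scanner files, written by Feature Extraction 11.5.1.1, give per spot an intensity after background subtraction and spatial correction, its error, and flags. The deposited table of the series held the same intensities without normalization between arrays. GeneSpring, which the authors used for normalization, was not used here, and their methods describe no test of single genes on the arrays.

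Control and outlier spots were left out, values were set on the log2 scale relative to the 75th percentile of the array, and spots of a probe were averaged. Testing required a probe to be well above background on every array of 1 group or both (25333, of which 25257 gave a p-value). The fit used limma 3.58.1 in R 4.3.3 (lmFit and eBayes, two-sided, Benjamini-Hochberg over all tested probes, threshold 0.05). Symbols came from a RefSeq table of GRCm38.p6. The brightest probe with values on 6 arrays stood for a gene. Marker sums kept outlier spots, so that each marker had a value on every array. Single values were also tested by exact permutation. The code was tested on simulated data. Figures were drawn with matplotlib 3.10.9.

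The text names every family probe, the 4 tested genes of each role list with the lowest unadjusted p, the 5 genes nearest to each member, Cx3cr1 and P2ry12. It also names the target genes with a difference below 0 and the partners not well above background on every array. Members and lists were chosen with earlier results of these data known. Alternatives were other normalizations, filters and models, and leaving out each array. For normexp (offset 50) the median spot intensity was used, not the mean. Leaving out replicate 3 of both groups together was chosen after seeing the data. The number of 3 arrays per group limits the precision.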

Additional observations from a re-analysis of the deposited data

How the results depend on the processing

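The Ppargc1a difference stayed above 0 with an adjusted p above 0.05 under all 19 alternative fits, and its lowest adjusted p, 0.0850, came from array weights. The same held for the brighter Ppargc1b probe or, in 1 fit, the mean over both, with a lowest adjusted p of 0.0654 under array weights (difference 0.63), whereas the other Ppargc1b probe stayed below 0 under all 18 fits run on it, from -0.37 to -0.051, and the Pprc1 difference stayed below 0 under all 19. The exact permutation and Mann-Whitney tests of the same values cannot go below a p of 0.1 and so cannot pass. With 1 array left out, the Ppargc1a difference ran from 0.44 to 1.14, Ppargc1b from 0.20 to 0.59 and Pprc1 from -0.26 to -0.05, and the count of family probes and that of pathway genes past the threshold stayed at 0 in limma. With array weights 2 pathway genes passed, Esrrb and Esrrg, where 0 passed without them, and 1100 of all 25257 tested probes (4.36%) passed in that fit. With 1 array left out, Ppargc1a minus Ppargc1b ran from -0.15 (without PGC-1αf/f replicate 3) to 0.87, and it was -0.082 with replicate 3 of both groups left out, an alternative chosen after seeing the data; the cause was not tested. Ppargc1a minus Pprc1 ran from 0.49 to 1.40 with 1 array left out, as under all 10 alternatives. Ppargc1b minus Pprc1 ran from 0.36 to 0.64 with 1 array left out, and from 0.22 (mean over probes) to 0.71 (replicate 3 of both groups left out) under all 10.

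With the replicate number as a replicate block, the Ppargc1a difference was 0.80 (limma adjusted p 0.191), that of Ppargc1b 0.35 (adjusted p 0.450) and that of Pprc1 -0.16 (adjusted p 0.611), and 0 family probes passed. Deviations of same-numbered arrays correlated at 0.139, 0.127 and 0.0187, so the numbers were not taken as pairs, although both replicate 1 arrays lay in slide column 1 and both replicate 2 arrays in column 2. Without the block 20 of all tested probes passed, and with it 0. When the column of the slide was fitted as a random effect (consensus correlation 0.349) 138 passed, none of them a family probe, and the Ppargc1a difference was 0.73 (95% interval 0.056 to 1.41, limma adjusted p 0.223).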
